A study of Mus musculus with 23 samples.

Results

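The genes described here supply cells with the building blocks of DNA and RNA: the 3 subunits of ribonucleotide reductase (Rrm1, Rrm2 and Rrm2b), thymidylate synthase (Tyms), thymidine kinase 1 (Tk1), 3 enzymes of pyrimidine synthesis (Cad, Dhodh and Umps) and the guanine nucleotide enzyme Impdh2. They were taken as a list of 9 symbols, and each was read from the probe set of highest mean among those annotated to that symbol alone. Of the 9 symbols, 8 had such a probe set, out of 19938 symbols on the array. Impdh2 had none under its symbol and is not analysed here.

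Expression was measured on 1-colour arrays in bone marrow samples of 23 mice, 1 array per sample. Every mouse, wild-type (WT) controls included, had received a single dose of 2 Gy at 2 months of age, so no unirradiated sample enters. Pax5+/- mice carry 1 functional copy of Pax5, which encodes a factor needed for B lineage commitment. The groups were 10 Pax5+/- leukemic samples (1 to 10), 7 Pax5+/- preleukemic samples (11 to 13 and 21 to 24), 3 WT leukemic samples (14, 15 and 17) and 3 WT preleukemic samples (18 to 20). Preleukemic samples are labelled proB and preB cells taken 3 weeks after the dose. Leukemic samples are titled pro-B cells but described as marrow, and no sort, age at sampling, sex or strain is given for them, so stage, age and purity cannot be told apart. All values are log2 signals, which ran from 3.65 to 14.2 over all probe sets, with array medians of 6.06 to 6.2.

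Ribonucleotide reductase converts ribonucleotides into deoxyribonucleotides and is the step that limits the supply of DNA precursors. Its large subunit Rrm1 pairs either with Rrm2, which is made in S phase and destroyed in mitosis, or with Rrm2b, also called p53R2, which p53 induces and which serves DNA repair and resting cells. Tyms makes dTMP from dUMP, Tk1 salvages thymidine in dividing cells, and Cad, Dhodh and Umps act in that order to build UMP. Genes of this group are classical targets of E2F factors and of Myc, and several encode the targets of antimetabolite drugs used in acute lymphoblastic leukemia.

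Upstream sequences are shown for the 3 members whose levels followed each other most closely within the groups, with 3 sequence motifs in capitals. They end at the last base before the annotated gene and come from RefSeq on GRCm38.p6, at chr7:102441445-102441694 (plus strand) for Rrm1, chr12:24708004-24708253 (plus strand) for Rrm2 and chr5:30073646-30073875 (minus strand) for Tyms. The motifs were an E2F site spelled TTCCCGC with the variants spelled TTCGCGC, also TTGCCGC and also TTGGCGC, the E-box CACGTG that Myc can bind, and CCAAT, which NF-Y binds, each searched on both strands.
Rrm1: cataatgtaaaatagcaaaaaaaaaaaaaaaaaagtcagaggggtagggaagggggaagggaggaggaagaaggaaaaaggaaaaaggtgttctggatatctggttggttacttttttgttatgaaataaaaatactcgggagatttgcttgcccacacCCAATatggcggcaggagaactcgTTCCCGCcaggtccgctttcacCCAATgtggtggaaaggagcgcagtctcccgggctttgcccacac
Rrm2: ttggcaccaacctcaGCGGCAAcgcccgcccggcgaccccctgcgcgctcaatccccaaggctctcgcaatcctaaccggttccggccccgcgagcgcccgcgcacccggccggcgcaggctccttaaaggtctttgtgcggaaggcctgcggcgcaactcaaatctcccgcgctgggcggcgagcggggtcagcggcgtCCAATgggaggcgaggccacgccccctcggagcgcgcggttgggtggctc
Tyms: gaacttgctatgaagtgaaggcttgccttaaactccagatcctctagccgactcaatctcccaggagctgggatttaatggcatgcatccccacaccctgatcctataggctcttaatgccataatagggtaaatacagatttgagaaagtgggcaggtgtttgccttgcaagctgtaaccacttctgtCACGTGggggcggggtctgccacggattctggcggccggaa
Rrm1 holds TTCCCGC and 2 copies of CCAAT, Rrm2 holds TTGCCGC on the minus strand and 1 CCAAT, and Tyms holds CACGTG. Over the 250 bases upstream of 32851 RefSeq gene starts, an E2F site of these letters occurred in 7.89%, CACGTG in 6.02% and CCAAT in 33.85%. In the same 250 bases, which for Tk1 and Cad reach into the annotated gene, none of the letters occurred for Tk1, Cad or Umps, and Impdh2 held CACGTG. Rrm2b and Dhodh had no upstream sequence in the reference used and were not searched. The motifs were chosen after the sequences had been seen, and a match is not evidence of binding.

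Some samples stood apart. WT preleukemic sample 20 had a mean over 20 mitosis genes of 9.793, against 7.784 and 7.951 in samples 18 and 19, and a mean over 14 neutrophil markers of 10.702 against 6.494 and 6.514. Pax5+/- leukemia 4 had the lowest mitosis mean of its group, 9.02 against a group median of 9.712, and the highest megakaryocyte mean, 11.156. Of 11 pro-B and pre-B markers, all were above the array median in every Pax5+/- sample and every WT preleukemic sample. In the WT leukemias 10 of them were above it in every sample. WT leukemia 15 had a mean over these markers of 9.103, against 10.697 and 10.629 in leukemias 14 and 17. Its NK marker mean was 9.339, against 5.77 and 6.204. Without leukemia 15, 0 genes passed limma between Pax5+/- and WT leukemias, against 53 with it. The mean of 11 pro-B and pre-B markers ran from 11.258 to 11.664 in Pax5+/- preleukemic samples, 11.425 to 11.629 in WT preleukemic samples, 10.118 to 11.259 in Pax5+/- leukemias and 9.103 to 10.697 in WT leukemias.

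**Figure D1:**
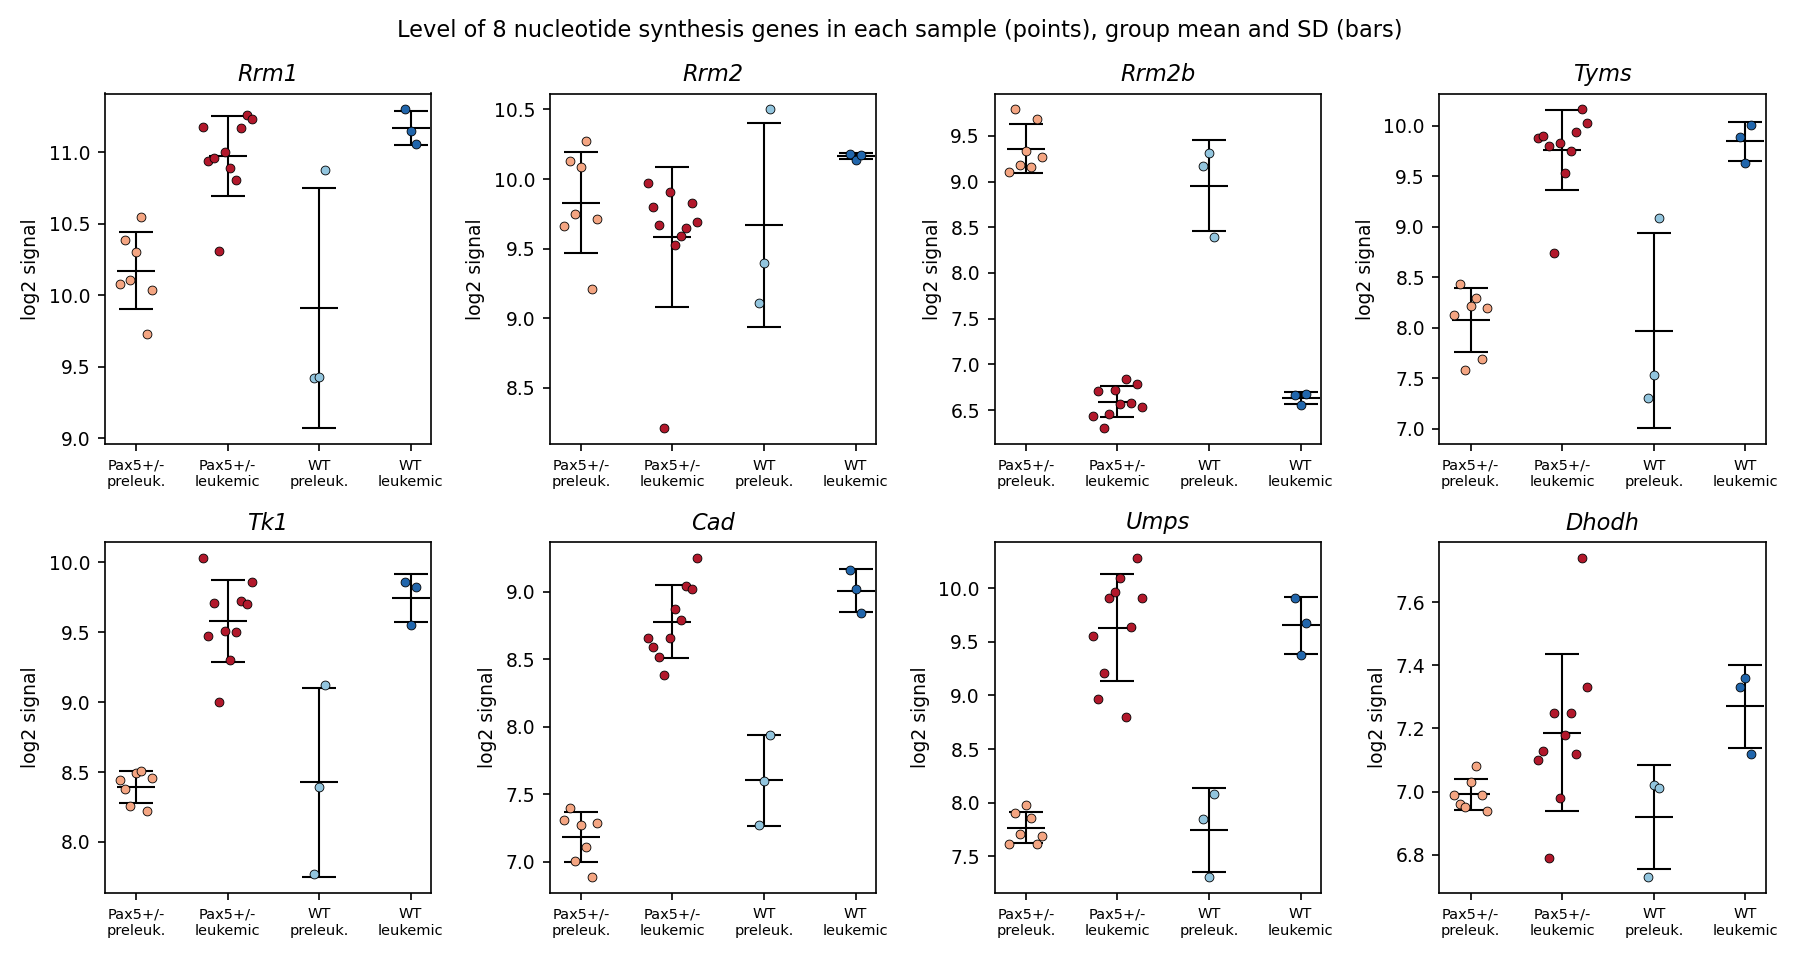
Log2 signal (y axis) of 8 genes in each of 23 samples (points), by group, with group mean and SD (bars); each panel has its own y range. Rrm2b lies between 6.3 and 6.84 in every leukemia and between 8.39 and 9.79 before leukemia, Tyms, Tk1, Cad and Umps lie higher in leukemia, and Rrm2 overlaps between stages.

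Leukemic against preleukemic cells in Pax5+/- mice asked how these genes differ between the irradiated precursors and the leukemias. Rrm2b was 6.81-fold lower in leukemia, while Umps, Tyms, Cad, Tk1 and Rrm1 were 3.64-, 3.21-, 3.02-, 2.27- and 1.75-fold higher. Rrm2 and Dhodh did not pass the test, which was limma with Benjamini-Hochberg adjustment over 15542 genes at a threshold of 0.05. Thus 6 of the 8 genes passed, 5 higher and 1 lower, where 64.6% of all genes passed in either direction, 28.0% higher and 36.5% lower. The median log2 difference was 0.995 over the 8 genes and -0.053 over all genes. In bulk samples such as these, fewer cells of a type and less RNA per cell cannot be told apart.

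In WT mice, with 3 samples a side, the same 6 genes passed in the same directions. Rrm2b was 5.00-fold lower and Umps, Tyms, Cad, Tk1 and Rrm1 were 3.75-, 3.66-, 2.65-, 2.49- and 2.40-fold higher. As in Pax5+/- mice, 6 of 8 passed, 5 higher and 1 lower, where 37.2% of all genes passed, 17.9% higher and 19.3% lower. The median log2 difference of the 8 genes was 1.29, against -0.057 over all genes. In Pax5+/- mice the stages did not overlap for 5 of the 8 genes, against 22.4% of all genes, and in WT mice for 7 of 8, against 44.4%.

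**Figure D2:**
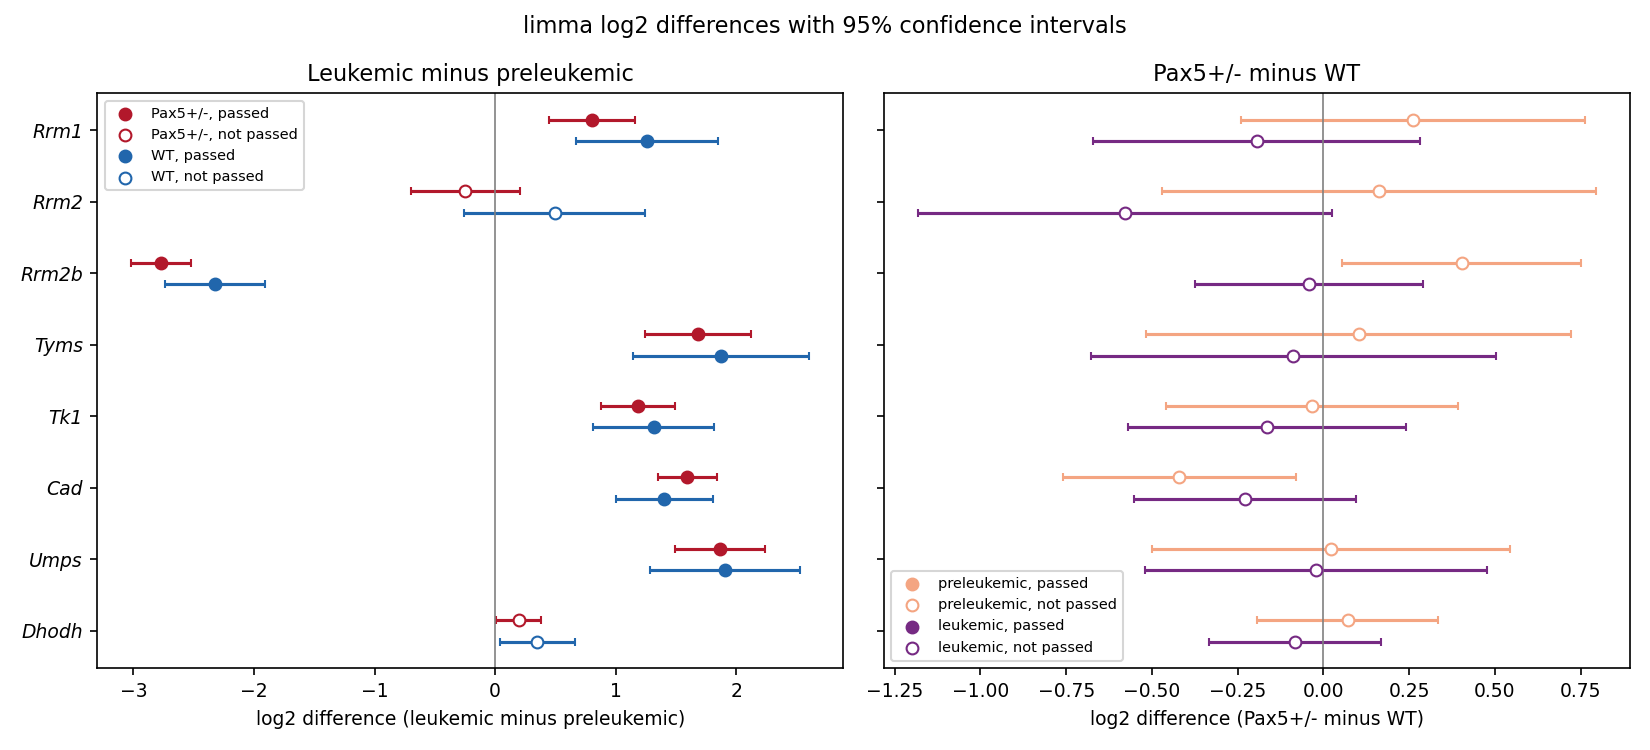
Fitted log2 differences (x axis) with 95% confidence intervals for 8 genes, leukemic minus preleukemic on the left and Pax5+/- minus WT on the right; filled points passed an adjusted p of 0.05. On the left Rrm2b stands alone at -2.77 and -2.32, and on the right no point is filled.

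Within ribonucleotide reductase the 3 subunits differed between the stages in different ways. Rrm1, the large subunit shared by both forms of the enzyme, ranged from 9.73 to 10.55 (median 10.11) in Pax5+/- preleukemic samples and from 10.31 to 11.26 (median 10.98) in the leukemias. Leukemia 4, at 10.31, was the only one inside the preleukemic range, and 9 of 10 lay above it. The log2 difference was 0.80 (SE 0.17, limma adjusted p = 0.000427). In WT samples Rrm1 read 9.42, 9.43 and 10.88 in samples 18 to 20 and 11.30, 11.15 and 11.06 in leukemias 14, 15 and 17. The WT groups did not overlap, and sample 20 lay close under the leukemias. The difference was 1.26 (SE 0.29, adjusted p = 0.00191), and 1.75 without sample 20. When only the WT groups were fitted its adjusted p was 0.0554.

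Rrm2, the S-phase small subunit, ran from 9.21 to 10.27 (median 9.75) in Pax5+/- preleukemic samples and from 8.21 to 9.97 (median 9.68) in the leukemias. No leukemia lay above the preleukemic range and leukemia 4, at 8.21, lay below it. The difference was -0.25 with a 95% interval of -0.70 to 0.21 (adjusted p = 0.324), and -0.09 without leukemia 4. WT preleukemic samples read 9.11, 9.40 and 10.50, and the WT leukemias 10.18, 10.14 and 10.17. The 3 WT leukemias were nearly level, and sample 20 lay above all of them. The WT difference of 0.49 had an interval of -0.26 to 1.24 (adjusted p = 0.286). Without sample 20 it was 0.91 (adjusted p = 0.0453), so in WT mice the Rrm2 call changed with that sample. With array weights and all samples kept it was 0.86 (limma adjusted p = 0.0295).

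Rrm2b, the p53-inducible small subunit, went the other way. Its range was 9.11 to 9.79 (median 9.27) in Pax5+/- preleukemic samples and 6.3 to 6.84 (median 6.575) in leukemias, so every leukemia lay far below every preleukemic sample. The log2 difference was -2.77 (SE 0.12, limma adjusted p = 1.12e-13), the 49th most negative of 15542 genes. WT preleukemic samples read 9.17, 9.31 and 8.39, and the WT leukemias 6.66, 6.56 and 6.68. Sample 20 was the lowest of its group but still far above the leukemias. The WT difference was -2.32 (SE 0.20, adjusted p = 3.54e-08), the 91st most negative, and -2.61 without sample 20. Leukemic levels of Rrm2b stayed above the array medians.

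Since Rrm2b is a p53 target, a list of other p53 targets is given beside it. In Pax5+/- mice 5 of 16 tested were lower and 3 higher, with a median log2 difference of 0.006, and in WT mice 5 were lower and 1 higher, with a median of 0.037. In Pax5+/- mice 8 of the 16 and in WT mice 10 of the 16 did not pass. Over all genes 36.5% were lower and 28.0% higher in Pax5+/- mice, and 19.3% and 17.9% in WT mice. The mean level over the 18 measured targets was lower in leukemia without overlap. It ran from 7.234 to 7.583 against 7.666 to 7.878 before leukemia in Pax5+/- mice. In WT mice it ran from 7.224 to 7.508 against 7.543 to 7.816. Strongly lower single targets, down to -3.102 and -2.94, weigh on such a mean more than on the medians of 0.006 and 0.037. Of all single genes, 22.4% and 44.4% had stages without overlap.

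Both thymidylate genes rose. Tyms, the de novo enzyme, ran from 7.58 to 8.43 (median 8.19) in Pax5+/- preleukemic samples and from 8.74 to 10.16 (median 9.855) in leukemias. The groups did not overlap, and leukemia 4 was the lowest leukemia. The difference was 1.68 (SE 0.21, adjusted p = 9.45e-07). In WT mice it read 7.30, 7.53 and 9.08 before leukemia and 9.89, 9.63 and 10.01 in leukemia. Sample 20 lay between the other preleukemic samples and the leukemias. The WT difference was 1.87 (SE 0.35, adjusted p = 0.000388), and 2.43 without sample 20.

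Tk1, the salvage kinase, had a tight preleukemic range of 8.22 to 8.51 (median 8.44) in Pax5+/- mice and 9.0 to 10.03 (median 9.605) in the leukemias. No value overlapped. The difference was 1.19 (SE 0.15, adjusted p = 6.62e-07). WT samples read 7.77, 8.39 and 9.12 before leukemia and 9.86, 9.55 and 9.82 in leukemia, a difference of 1.32 (SE 0.24, adjusted p = 0.000309). Tk1 was the one gene with a further probe set, which gave 1.39 in Pax5+/- mice (adjusted p = 1.63e-08) and 1.23 in WT mice (adjusted p = 0.000218). Both Tk1 probe sets passed in both genotypes.

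The 3 pyrimidine enzymes did not move alike. Cad, which carries the first steps, ran from 6.89 to 7.4 (median 7.27) in Pax5+/- preleukemic samples and from 8.38 to 9.25 (median 8.725) in leukemias. The gap between the groups was wide. The difference was 1.60 (SE 0.12, adjusted p = 3.63e-10). WT samples read 7.27, 7.60 and 7.94, then 9.16, 9.02 and 8.84 in leukemia, also without overlap. The WT difference was 1.40 (SE 0.19, adjusted p = 1.63e-05).

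Umps, the last enzyme of the pathway, ran from 7.62 to 7.98 (median 7.71) in Pax5+/- preleukemic samples and from 8.8 to 10.28 (median 9.775) in leukemias. Its leukemic values were the most spread of the genes that rose, with an SD of 0.50 against 0.14 before leukemia, and still did not overlap. The difference of 1.86 (SE 0.18, adjusted p = 2.04e-08) was the 264th highest of all genes. WT samples read 7.85, 7.31 and 8.08 before leukemia and 9.91, 9.38 and 9.67 in leukemia. The WT difference was 1.91 (SE 0.30, adjusted p = 6.11e-05). Leukemia 4, which was lowest for Rrm1, Rrm2, Tyms, Tk1 and Cad, read 9.91 for Umps, above the group median.

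Dhodh, the mitochondrial enzyme between Cad and Umps, ran from 6.94 to 7.08 (median 6.99) in Pax5+/- preleukemic samples and from 6.79 to 7.74 (median 7.155) in leukemias. Of the leukemias, 8 lay above the preleukemic range and 1 below it. The difference was 0.20 with a 95% interval of 0.01 to 0.38, and its adjusted p of 0.0638 missed the threshold. WT samples read 6.73, 7.02 and 7.01, then 7.33, 7.36 and 7.12 in leukemia, with a difference of 0.35 (adjusted p = 0.0706). The Dhodh call was unstable in both genotypes. Leaving out Pax5+/- leukemia 3 or leukemia 5 took the Pax5+/- adjusted p to 0.0161 or 0.0442. Leaving out Pax5+/- leukemia 3 or leukemia 9 took the WT one to 0.0455 or 0.0196, with the WT difference unchanged at 0.35. Those Pax5+/- samples enter the WT comparison only through the variance of the shared fit. Quantile normalization gave -0.0021 in Pax5+/- mice. Dhodh also passed with Xist as a covariate, at 0.21 in Pax5+/- mice (adjusted p = 0.0291) and 0.55 in WT mice (adjusted p = 0.0138), and with array weights in WT mice, at 0.46 (adjusted p = 0.00599).

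Markers of division and of some other cells moved with stage. In Pax5+/- mice all 20 mitosis genes and 18 of 22 S-phase genes rose, and 11 of 14 neutrophil, 10 of 13 monocyte, 5 of 5 megakaryocyte and 8 of 10 stroma markers were higher in leukemia, while 6 of 11 pro-B and pre-B markers were lower. In WT mice 18 of the 20 mitosis genes and 20 of the 22 S-phase genes rose. There 1 neutrophil, 7 monocyte, 5 megakaryocyte and 7 stroma markers were higher, and 7 pro-B and pre-B markers lower. Erythroid markers had 0 higher and 1 lower of 4 in Pax5+/- mice, and 2 higher and 0 lower in WT mice. T markers had 2 and 0 of 9 higher, NK markers 1 and 0 of 9, and none lower. Plasma cell markers had 2 higher and 4 lower of 9, then 3 and 3. Over all genes 28.0% were higher and 36.5% lower in Pax5+/- mice, and 17.9% and 19.3% in WT mice. The megakaryocyte mean ran from 6.516 to 6.75 in Pax5+/- preleukemic samples, 8.254 to 11.156 in Pax5+/- leukemias, 6.566 to 6.766 in WT preleukemic samples and 9.69 to 10.44 in WT leukemias. The neutrophil mean ran from 6.114 to 6.843 and from 6.132 to 11.068 in the Pax5+/- groups, and from 9.47 to 10.342 in WT leukemias. In WT preleukemic samples it ran from 6.494 to 10.702, with sample 20 the highest. The median log2 difference of the neutrophil markers was 1.947 in Pax5+/- mice and 2.102 in WT mice, although only 1 passed there. Of the 14 neutrophil markers, 7 were above the array median in every Pax5+/- preleukemic sample. Prtn3, Ctsg, Mmp8 and Cxcr2 were below it in every such sample.

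With the mitosis mean as a covariate, an alternative added after the values had been seen, the Pax5+/- difference of Rrm1 was -0.10 (adjusted p = 0.620) and that of Rrm2 was -1.23 (adjusted p = 0.000745). Tyms, Tk1, Cad and Umps remained higher at 0.56, 0.48, 1.17 and 1.76, and Rrm2b remained lower at -2.49. With the first component of 73 non-B markers as a covariate, Rrm2b, Cad and Umps passed at -2.42, 1.39 and 1.64, Rrm2 passed at -1.10 (adjusted p = 0.0446), and Rrm1, Tyms and Tk1 did not pass, with 0.12, 0.88 and 0.75. In WT mice the Rrm1 call was also lost, at 0.33 with the mitosis mean (adjusted p = 0.255) and 0.57 with the marker component (adjusted p = 0.340), and Tyms and Tk1 did not pass with the marker component, at 1.06 and 0.88 (adjusted p = 0.134 and 0.0848). Both covariates differ strongly between the stages, so such a fit also removes stage differences, and their part in the results was not tested. Mouse numbers of Pax5+/- samples carry letters of unstated meaning, and leukemia 10 shares the letter L with preleukemic samples 21 to 23. Within that letter the differences were -2.86 for Rrm2b, 2.16 for Cad, 2.09 for Umps, 1.97 for Tyms, 1.45 for Tk1, 1.04 for Rrm1, 0.30 for Dhodh and -0.17 for Rrm2, with 1 leukemia.

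**Figure D3:**
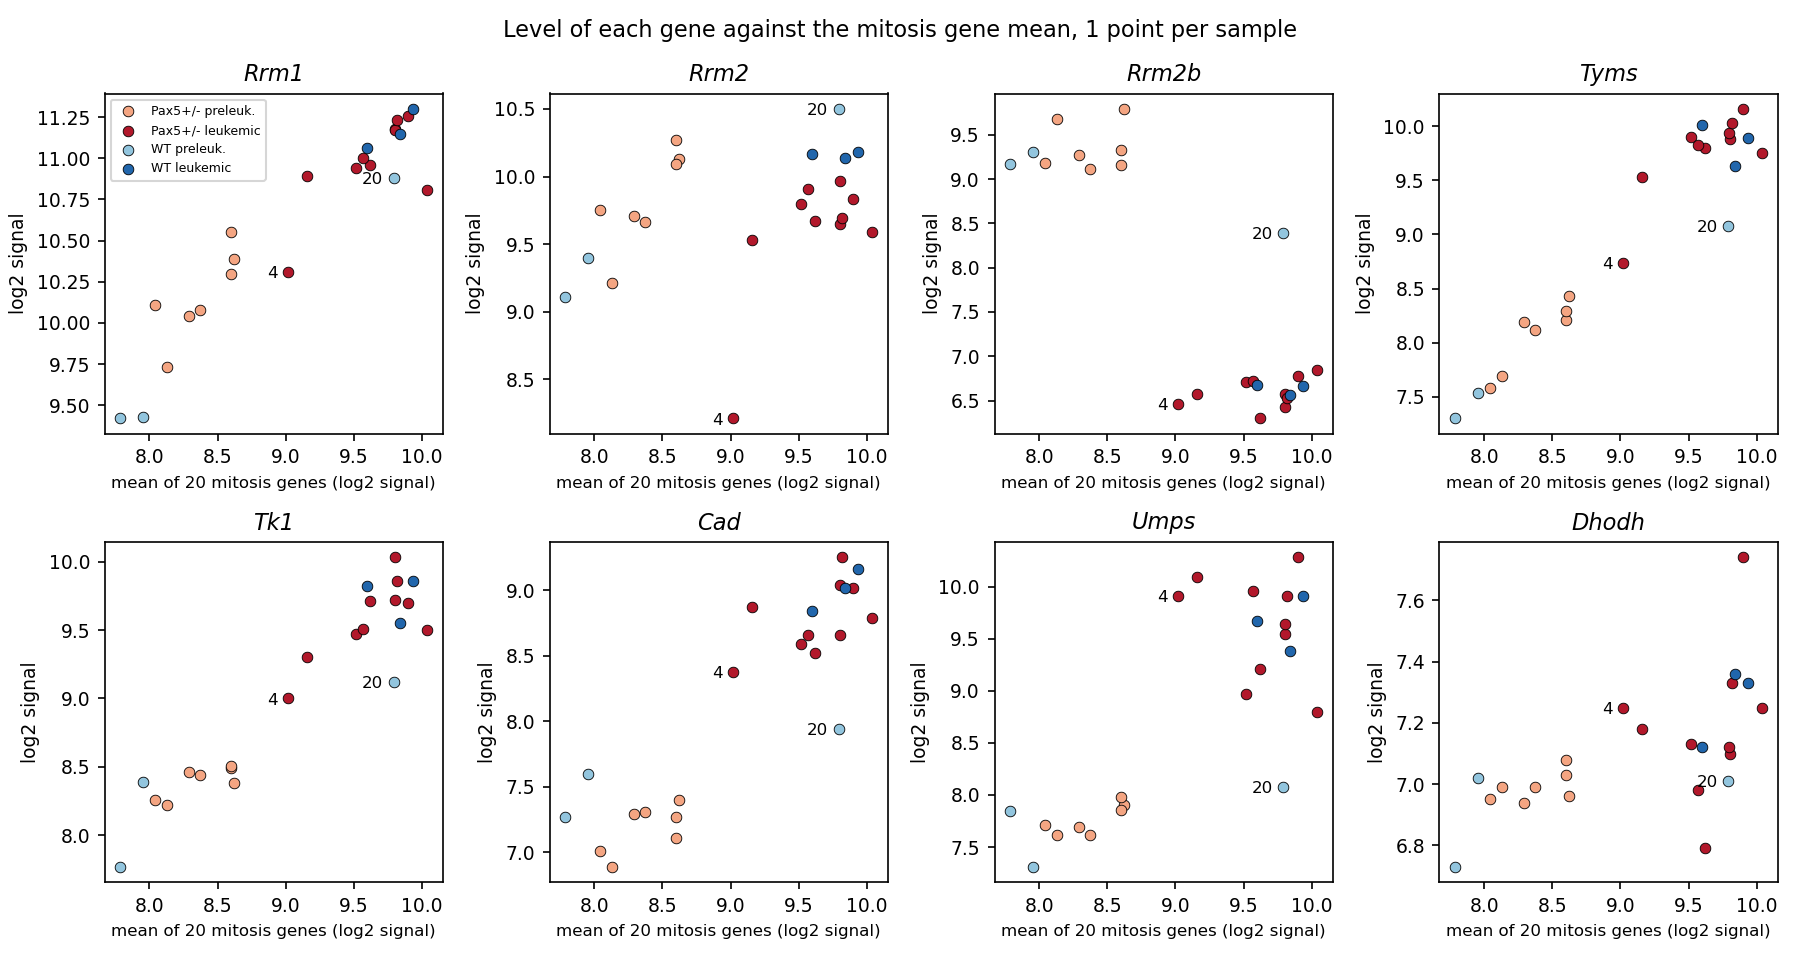
Log2 signal of each gene (y axis) against the mean of 20 mitosis genes (x axis, log2 signal), 1 point per sample, coloured by group; numbers mark Pax5+/- leukemia 4 and WT preleukemic sample 20. Sample 20 lies among the leukemias on the x axis, close to them for Rrm1, below them for Umps and Cad, and above them for Rrm2b.

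Among the 10 Pax5+/- leukemias, the levels were set against the mitosis mean, in 8 relations. Pearson's r was 0.797 for Tyms (permutation p = 0.00406, adjusted 0.0325) and 0.768 for Tk1 (permutation p = 0.00893, adjusted 0.0357). Spearman's rho was 0.552 for Tyms (permutation p = 0.105) and 0.612 for Tk1 (permutation p = 0.0673), both 0.211 after adjustment. Rrm1 and Rrm2 had r of 0.703 and 0.673, with adjusted permutation p of 0.0617 and 0.0626. Cad, Rrm2b, Dhodh and Umps had r of 0.527, 0.369, 0.224 and -0.316. Without leukemias 4 and 6, those farthest from the median of the mitosis mean, r was 0.18 for Tyms, 0.24 for Tk1, 0.16 for Rrm1 and -0.38 for Rrm2. For Tyms, Tk1, Rrm1 and Rrm2 the relations thus rested on those samples. Without them r was 0.541 for Cad, 0.316 for Rrm2b, 0.592 for Dhodh and 0.0386 for Umps, and none passed after adjustment.

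Deviations from the 4 group means, over 23 samples that share a group mean, show which genes varied together, as a description. Rrm1, Rrm2, Tyms and Tk1 correlated pairwise at 0.79 to 0.91, and at 0.70 to 0.89 without sample 20. The highest value was for Rrm1 and Tyms, 0.910, which was 0.824 without sample 20. Cad correlated with those 4 at 0.56 to 0.69, and at 0.46 to 0.64 without that sample. These values were not recomputed without leukemia 4, the lowest of its group for those 4 genes and for Cad. Umps stood apart, at 0.08 to 0.33 with those 4, and so did Dhodh, at 0.07 to 0.24. Nearest to Rrm1 were Pclaf (r = 0.977), Mad2l1 and Plk4, which act in replication, the spindle checkpoint and centriole duplication. Nearest to Rrm2 were Rfc5 (0.933), Asf1b and Rad54l, to Tyms Asf1b (0.956), Pclaf and Mcm10, and to Tk1 the DNA ligase Lig1 (0.924), Haus5 and Blm. Cad was nearest to Mthfd1l (0.887), Adk and Immt, where Mthfd1l is a mitochondrial folate enzyme and Adk salvages adenosine. Umps was nearest to Parp1 (0.857), Tmem255a and Gprin3, and Dhodh to Grwd1 (0.882), Timm13 and Sfxn1. Rrm2b was nearest, less closely, to Zglp1 (0.797), Rita1 and Irs1, at 0.696, 0.642 and 0.629 without sample 20.

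Of 10 regulators tested, 3 were higher and 2 lower in Pax5+/- leukemia and 4 higher and 2 lower in WT leukemia. Of all genes, 28.0% were higher and 36.5% lower in Pax5+/- leukemia, and 17.9% and 19.3% in WT leukemia. Myc rose by 3.62 on the log2 scale in Pax5+/- mice (adjusted p = 1.31e-08) and by 2.80 in WT mice (adjusted p = 0.000659). Of the E2F factors, E2f3 rose by 1.00 and 1.31 and E2f6 by 0.45 and 1.05, while E2f2 fell by 2.24 and 1.72. E2f1 differed by -0.06 in Pax5+/- mice (adjusted p = 0.679) and rose by 0.58 in WT mice (adjusted p = 0.0245). Rb1, which holds E2F factors in check, fell by 1.64 and 1.31. E2f4, E2f5, E2f7 and E2f8 passed in neither genotype.

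Other genes of nucleotide metabolism were read from lists of 58 names, of which 50 were tested. In Pax5+/- mice 32 were higher in leukemia and 9 lower, with a median log2 difference of 0.756, where 28.0% of all genes were higher and 36.5% lower. In WT mice 30 were higher and 3 lower, with a median of 0.967, where 17.9% of all genes were higher and 19.3% lower. The counts of the single lists that follow are to be set beside the same shares. Of 12 purine synthesis genes, 9 rose in Pax5+/- mice and 8 in WT mice, and none fell. Adsl, Paics and Gart, which carry steps of inosine monophosphate synthesis, rose by 1.27, 1.00 and 1.48 in Pax5+/- mice and by 1.23, 0.98 and 1.62 in WT mice. Of 6 purine salvage genes 5 rose in both genotypes, among them the phosphorylase Pnp, 5.17-fold and 5.51-fold, and Adk, 3.09-fold and 3.30-fold.

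The list of dNTP supply and one-carbon genes held the largest differences. Of its 14 genes, 10 were higher and 2 lower in either genotype. Dctd, which deaminates dCMP to the substrate of Tyms, rose 12.4-fold in Pax5+/- mice (adjusted p = 2.35e-12) and 11.4-fold in WT mice (adjusted p = 8.15e-08). Shmt2, which feeds one-carbon units into folate, rose 3.56-fold and 3.54-fold. Dck, the kinase that salvages deoxycytidine, fell by 1.68 and 1.31 on the log2 scale. In the pyrimidine and CTP list, 2 genes were higher and 3 lower of 6 in Pax5+/- mice. Uck2, a uridine and cytidine kinase, rose by 2.11 and 1.81, and the CTP synthase Ctps by 0.74 and 1.12, while its paralogue Ctps2 fell by 0.44 in Pax5+/- mice and differed by -0.30 in WT mice (adjusted p = 0.121). Breakdown genes were mixed, with 6 higher and 4 lower of 12 in Pax5+/- mice and 5 higher and 0 lower in WT mice.

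**Figure D4:**
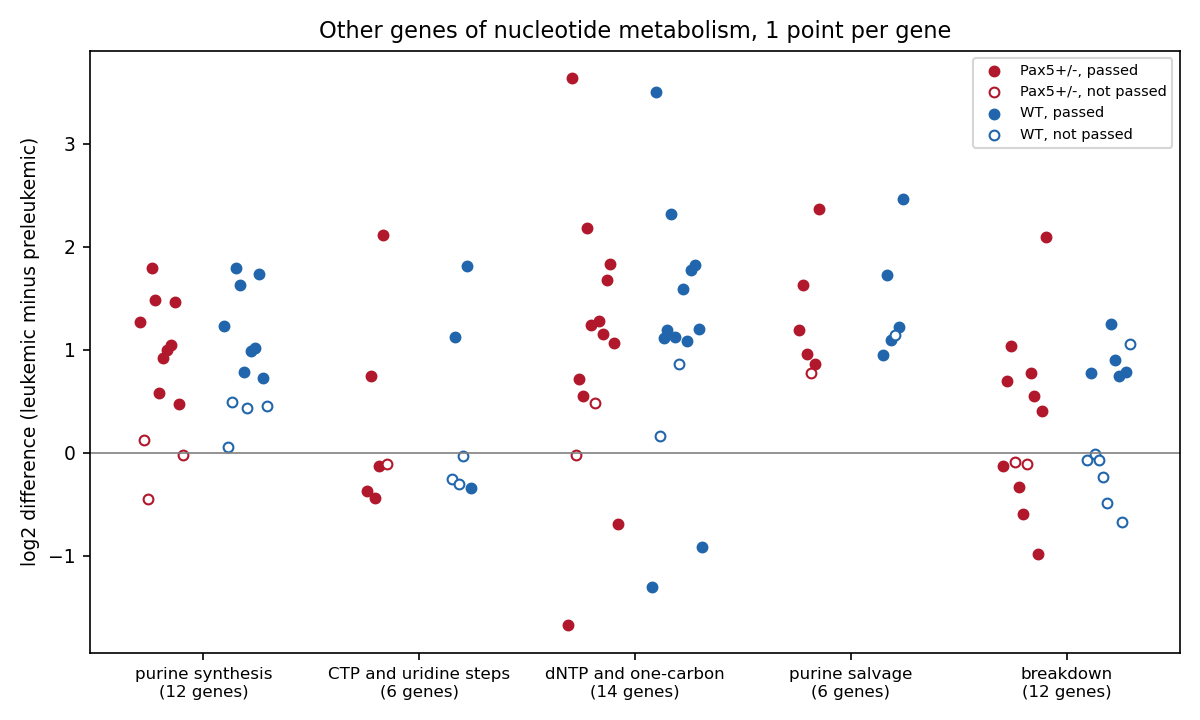
Log2 difference, leukemic minus preleukemic (y axis), of 50 other nucleotide genes in 5 lists (x axis), 1 point per gene, Pax5+/- in red and WT in blue; filled points passed an adjusted p of 0.05. Most points of the purine synthesis, dNTP and salvage lists lie above 0, and the topmost pair is Dctd.

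Pax5+/- against WT preleukemic cells asked whether the lost Pax5 copy changes these genes before leukemia. None of the 8 genes passed limma, where 0.624% of all genes did, 0.232% higher and 0.392% lower in Pax5+/- cells. None had groups without overlap, against 5.19% of all genes, and 2 had an unadjusted p under 0.05. Those were Rrm2b, at 0.40 (95% interval 0.05 to 0.75, unadjusted p = 0.0254, adjusted p = 0.453), and Cad, at -0.42 (-0.76 to -0.08, unadjusted p = 0.0177, adjusted p = 0.399). Without sample 20 the difference was 0.12 for Rrm2b and -0.25 for Cad. Rrm1 differed by 0.26 (-0.24 to 0.76), and by 0.75 without sample 20 (adjusted p = 0.0815), which passed at 0.0181 when leukemia 4 was also left out of the shared fit. The other differences ran from -0.03 for Tk1 to 0.16 for Rrm2, and without sample 20 they were 0.31 for Tk1, 0.58 for Rrm2, 0.66 for Tyms, 0.19 for Umps and 0.12 for Dhodh, none of which passed.

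Pax5+/- against WT leukemias compared the tumours of the genotypes. None of the 8 passed limma, where 0.341% of all genes did, 0.0257% higher and 0.315% lower in Pax5+/- leukemias, and none had an unadjusted p under 0.05. The largest difference was Rrm2, at -0.58 (95% interval -1.18 to 0.03, adjusted p = 0.873), and the rest ran from -0.23 for Cad to -0.02 for Umps. For Rrm2 all 10 Pax5+/- leukemias, at most 9.97, lay below the 3 WT leukemias, at least 10.14, and it was the 1 of the 8 genes without overlap, against 0.579% of all genes. Among the other nucleotide genes 1 passed, the nucleotidase Nt5c3, which was 2.33-fold lower in Pax5+/- leukemias (adjusted p = 0.0199). That call was lost without WT leukemia 15 or 17. Those 2 samples had erythroid marker means of 9.127 and 9.343, against 6.507 in WT leukemia 14 and 6.025 to 6.695 in Pax5+/- leukemias. Of 4 erythroid markers, 2 were lower in Pax5+/- leukemias and 0 higher. Whether red cell content bears on the Nt5c3 difference was not tested.

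The interaction asked whether the stage difference itself differed between genotypes. None of the 8 genes passed, where 0.0965% of all genes did, and none had an unadjusted p under 0.05. The estimates ran from -0.74 for Rrm2 (95% interval -1.61 to 0.13, adjusted p = 0.772) to 0.19 for Cad (-0.28 to 0.66, adjusted p = 0.944). For Rrm2b it was -0.44 (-0.93 to 0.04, adjusted p = 0.734). Sample 20 moved these estimates. Without it they were -0.16 for Rrm2b, -1.15 for Rrm2, -0.94 for Rrm1, -0.75 for Tyms, -0.48 for Tk1 and 0.02 for Cad, and none passed. The genotype and stage comparisons share samples, so their values are set side by side only.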

How the data were processed

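Per the labels' protocols, total RNA came from a Trizol extraction and was biotinylated for 1-colour arrays. The authors deposited gene-level log2 values. Per the submitters' processing notes the software was Transcriptome Analysis Console (no version given). Normalization, background correction and genome build are not given in the sources used here. The number of arrays limits the precision.

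Of 28944 probe sets, 21789 carried 1 symbol and were used, 1621 carried several and 5534 none, by an annotation that can be old. The probe set of highest mean stood for each of 19938 symbols. A gene was tested if above its array's 30th percentile on at least 3 arrays, which kept 15542, all 8 measured members included, and removed 4396. One linear model covered the 4 title groups (limma 3.58.1, R 4.3.3), with contrasts and an eBayes prior that follows intensity, and tests were two-sided. Folds are 2 raised to the log2 difference. Pax5+/- mice have a number each in the labels, WT sources carry one too, and p-values measure the spread between these samples. WT leukemia 16 was not used here.

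Members and lists were chosen with earlier results of these data known. Named genes were the members, up to 3 passing genes of smallest p per nucleotide list and comparison, the 3 genes nearest to each member, and the regulators. Correlations used 100000 permutations, two-sided.

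Alternatives were no filter or the 50th percentile, no trend, quantile normalization, median centring, array weights, robust priors, the mean of all probe sets, only the groups compared, a covariate (Xist or the marker component), mouse-number letters as random blocks, Mki67 for the mitosis mean, and leaving out each sample. The mitosis covariate, and sample 20 with leukemia 4 left out, were chosen after seeing the data. The fit was tested on simulated data with 200 of 15542 genes changed. At a log2 change of 1 it recovered 97% for Pax5+/- stages, 82% for WT stages, 93% for preleukemic genotypes, 92% for leukemic genotypes and 79% for the interaction, where genes were simulated as independent.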

Additional observations from a re-analysis of the deposited data

Results flagged for a closer look

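Pax5+/- leukemia 4 lay apart from the other 9 leukemias of its group for 3 genes. It read 10.31 for Rrm1, 8.21 for Rrm2 and 8.74 for Tyms, each the lowest of 10, and the gap to the next sample took 0.526, 0.75 and 0.556 of the group's range against a critical value of 0.466. These were 3 flags among 16 gene and group pairs examined, where chance gives about 1 in 20 groups, and 1 sample accounts for all of them. The same sample had the lowest mitosis mean of its group, 9.02, and the lowest mean over 22 S-phase genes, 8.785, and its Myc level of 11.95 was the highest of the group. Whether these values move together for one reason was not tested.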

How the results depend on the processing

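Under the alternatives other than leaving out single samples, 724 of the recomputed values kept their direction and side of the threshold, 12 no longer passed, 11 newly passed, 18 changed sign and 26 counts or values moved. Leaving out single samples kept 1290, with 11, 7, 22 and 15 in those classes. Rrm2b, Cad and Umps passed in both stage comparisons under every alternative run. Leaving out sample 20 changed the Rrm2 call in WT stages. So did array weights, and leaving out sample 20 together with leukemia 4, at 0.91 (limma adjusted p = 0.00233). Leaving out sample 20 and leukemia 4 together changed the Rrm1 call between preleukemic genotypes. The Rrm1 stage calls and the Pax5+/- Rrm2 stage call were the same whichever single sample was left out. They changed with the marker or mitosis covariate, and Rrm1 in WT stages also when only the WT groups were fitted. The 3 WT samples a group limit the rest. The cause of the changes below was not tested. No paired analysis was possible because the groups share no replicate numbers. The letters of the Pax5+/- mouse numbers, whose meaning is not given, were tried as a random block, and within-letter differences rest on 1 leukemia.

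With the marker component as a covariate, 3 of the 8 genes passed in WT stages, all genes passing were 3273 in Pax5+/- stages, 2097 in WT stages and 2 between leukemias, and the other nucleotide genes passing were 25, 20 and 0. Sign changes were 0.0314 for Rrm1, 0.179 for Tyms and 0.0541 for Umps between leukemias, 0.10 for Tk1 between preleukemic genotypes, and -0.37 for Rrm2 in WT stages. With the mitosis mean, all genes passing were 4013 and 1952 in the stages and the other nucleotide genes 25 in Pax5+/- stages, and Rrm1 read -0.10 in Pax5+/- stages, Rrm2 -0.52 in WT stages, Tk1 0.04 between preleukemic genotypes and Tyms 0.0631 between leukemias.

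With array weights, 1 of the 8 genes passed between preleukemic genotypes, Rrm1, at 0.69 (adjusted p = 0.0407), all genes passing were 444 there, 127 between leukemias and 82 for the interaction, and 1 other nucleotide gene passed between preleukemic genotypes and 1 for the interaction. Tk1 read 0.39 between preleukemic genotypes and Umps 0.10 between leukemias and 0.0416 for the interaction. With only the groups compared, all genes passing were 3537 in WT stages, 231 between preleukemic genotypes and 1 between leukemias, with 0 other nucleotide genes there. With sample 20 and leukemia 4 left out, 1 of the 8 genes (Rrm1) passed between preleukemic genotypes, all genes passing were 149 there and 38 for the interaction, Tk1 read 0.31 there and Tyms 0.0256 between leukemias. With the letter as a random block (correlation -0.044) all genes passing were 158 and 88 between preleukemic and leukemic genotypes, and with Xist as a covariate 21 between leukemias. Quantile normalization gave -0.0021 for Dhodh in Pax5+/- stages, and the mean of probe sets gave 0.0145 for the interaction of Tk1. The median of all genes in Pax5+/- stages was -0.053, and -0.064 or -0.034 under quantile normalization or median centring.

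Correlations with the mitosis mean were 0.719 for Rrm1 and 0.671 for Rrm2 after median centring (both passing after adjustment) and 0.753 for Tyms and 0.789 for Tk1 against Mki67 (neither passing). Without leukemias 4 and 6 they were -0.376 for Rrm2, 0.18 for Tyms, 0.245 for Tk1 and 0.0386 for Umps. Leaving out 1 leukemia at a time gave ranges of 0.374 to 0.912 for Rrm1, 0.202 to 0.758 for Rrm2, 0.633 to 0.895 for Tyms, 0.575 to 0.913 for Tk1 and -0.0165 to 0.377 for Dhodh.

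Leaving out 1 sample gave 3794 to 6902 genes passing in WT stages, 40 to 137 between preleukemic genotypes, 0 to 160 between leukemias and 6 to 98 for the interaction, and 0 to 1 other nucleotide genes in each of the last 3 comparisons. Between preleukemic genotypes the ranges were -0.12 to 0.58 for Rrm2, -0.23 to 0.66 for Tyms, -0.36 to 0.31 for Tk1, -0.20 to 0.19 for Umps and -0.0236 to 0.12 for Dhodh. Between leukemias they were -0.19 to 0.0256 for Tyms and -0.16 to 0.11 for Umps, and for the interaction -0.75 to 0.14 for Tyms, -0.48 to 0.20 for Tk1 and -0.21 to 0.18 for Umps.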
